A study of Mus musculus with 12 samples.

Results

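The 10 genes described here encode subunits of Polycomb repressive complex 2 (PRC2), namely Ezh1, Ezh2, Eed, Suz12, Rbbp4, Mtf2, Phf1, Phf19, Jarid2 and Aebp2. They were chosen by name from the 25759 genes listed for each library, and all 10 were found in all 12 libraries. RNA was sequenced from mouse HATX3 embryonic stem cells (ESCs), which carry an Xist allele under a doxycycline-inducible promoter, and from ΔCdk8 mutants of them. The line goes back to haploid embryos, and its cells are now diploid. The wild-type group held 3 samples of the parental cells, numbered 1, 2 and 3, and the mutant group held the clones 8, 11 and 15, each with a small homozygous deletion around the start codon of Cdk8 that was made with CRISPR/Cas9. One of the mutant lines also carries a small insertion at the locus, and each line is a single clone. The study describes the parental cells as polyclonal, with perhaps some differentiated cells among them. Loss of Cdk8 and derivation as a single clone therefore cannot be told apart between the genotypes. All 6 were sequenced both without doxycycline (uninduced conditions) and after Xist had been expressed for 48 h in 1 µg/ml doxycycline, in 4 groups of 3 libraries. Doxycycline and Xist expression came together in every induced library, so their effects cannot be told apart. Neither the labels nor the study's methods say that the wild-type numbers were separate cultures, and p-values for them measure only the spread between these samples, which may be technical.

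PRC2 is the enzyme that methylates histone H3 at lysine 27, a mark of repressed developmental genes and of the inactive X chromosome. Its core holds a catalytic subunit, EZH2 or EZH1, together with EED, which reads the mark, SUZ12, which holds the complex together, and a histone-binding protein, RBBP4 or RBBP7. Accessory subunits assemble on this core in mutually exclusive sets. The Polycomb-like proteins PHF1, MTF2 and PHF19 define the form called PRC2.1, and JARID2 with AEBP2 defines the form called PRC2.2. ESCs are known for high levels of the complex, and Xist RNA recruits Polycomb complexes to the chromosome that it coats. The comparisons below address whether the RNA of these subunits differed without Cdk8, whether it changed when Xist was expressed, and whether that change differed between the genotypes.

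The number of reads on genes was 22170087 in the shallowest and 60798578 in the deepest library, and between 134 and 40220 of them fell on a single PRC2 subunit gene. ESC identity was checked with 8 markers, whose summed level was 3974 to 7544 TPM (exon reads per exon length, scaled by the authors to the same total in each library) and none of which was below 26.2 TPM in any library. Among them, Nanog was on average 2.99 times and Esrrb 2.02 times as high in uninduced ΔCdk8 as in uninduced wild-type libraries, both without overlap. After induction Esrrb was 3.13 times its uninduced mean in wild type and 1.28 times in ΔCdk8 ESCs. EdgeR called none of these differences, and DESeq2 called that of Esrrb after induction in wild type. The remaining markers were at 0.888 (Tdgf1) to 1.70 (Klf4) times their wild-type means in uninduced ΔCdk8 libraries. After induction in wild type Tdgf1 went to 0.485 of its uninduced mean, without overlap. Pou5f1 was then at 0.974, and Sox2, Nanog, Zfp42, Klf4 and Dppa5a were at 1.29 to 1.75 times their means. In ΔCdk8 ESCs Tdgf1 went to 0.664 of its mean. Cdk8 itself was at 64.2 to 74.2 TPM in uninduced wild-type libraries and at 34.4, 56.8 and 85.3 TPM in clones 8, 11 and 15. Most of the gene is outside the deletion, so its level does not check the labels. Wild-type number 1 stood apart from numbers 2 and 3. Its genes differed from the mean of the other wild-type libraries by a median of 0.284 (log2, uninduced) and 0.301 (induced), against 0.157 to 0.188 for the others. Among the mutants clone 11 stood apart most, with medians of 0.381 and 0.391. The summed TPM of 4 trophoblast markers was 46.4 and 37.9 in wild-type number 1, 0.355 to 2.09 in numbers 2 and 3, and 12.5 to 58.6 in the clones. Hand1 was the most abundant of them in number 1. The summed TPM of 5 fibroblast markers was 9.47 to 18.9 in uninduced wild-type and 20.6 to 30.8 in uninduced ΔCdk8 libraries. Thy1 was the most abundant of these, and Postn was at 0 in 5 libraries. In uninduced clone 15 Col1a1, Col1a2 and Postn were at 3.36, 3.67 and 2.71 TPM, against at most 0.625, 0.539 and 0.196 TPM in uninduced wild-type libraries. Twist1 was at 1.56 TPM there, against at most 1.43 TPM, but Thy1 at 10.6 TPM was within the wild-type 8.32 to 16.1 TPM. Uninduced clone 11, which had the highest sum of its group, had Col1a2 at 0.0793 and Postn at 0 TPM. The part of the ESC, trophoblast and fibroblast markers in the results below was not tested. In bulk RNA, fewer cells of a type and less RNA per cell cannot be told apart.

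In uninduced wild-type ESCs the subunit genes spanned a wide range of levels. TPM is per length of exon, so levels can be compared between genes. Rbbp4, whose product binds histone H4, was highest at 364±6.63 TPM (mean±s.d., n=3). Ezh2 at 249±25.7 TPM, Eed at 206±25.2 TPM, Jarid2 at 195±64.4 TPM, Mtf2 at 161±65.6 TPM and Suz12 at 139±39.7 TPM followed, and each of these 5 overlapped its neighbour in this order. Aebp2 stood below them at 39.5±0.998 TPM, without overlap on either side. Ezh1 at 13.3±2.77 TPM overlapped Phf19 at 9.96±5.76 TPM, and Phf19 overlapped Phf1 at 5.63±2.31 TPM. Among the 11801 genes with a mean of at least 1 TPM in this group, the 6 most abundant subunit genes lay between percentiles 90.2 and 96.5, whereas Ezh1, Phf19 and Phf1 lay at percentiles 41.5, 35.0 and 23.5. Ezh2 therefore gave most of the catalytic subunit RNA, Mtf2 most of the Polycomb-like RNA, and Jarid2 more than Aebp2.

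**Figure D1:**
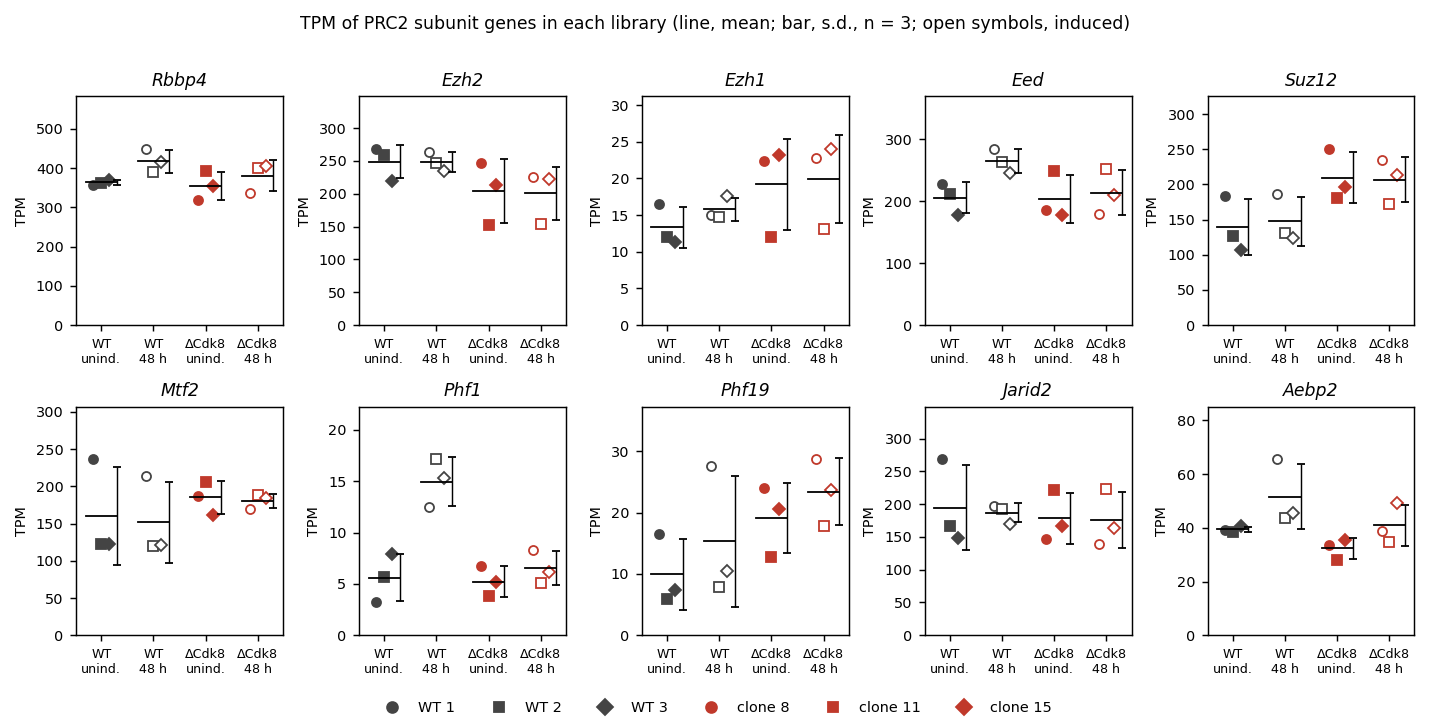
TPM (linear axis from 0) of each PRC2 subunit gene in every library, by genotype (black, wild type; red, ΔCdk8) and induction (open symbols, 48 h of Xist expression). Lines are means and bars s.d. of 3 libraries. Phf1 is the subunit gene whose induced wild-type libraries, at 12.5 to 17.1 TPM, lie far above the other groups, which reach at most 8.34 TPM.

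In uninduced conditions none of the 10 subunit genes passed the study's threshold between ΔCdk8 and wild-type ESCs, which asks for more than a 2-fold change at an adjusted p below 0.01 (edgeR quasi-likelihood test, Benjamini-Hochberg adjustment over 14646 genes). The same test called 0% of all genes, so that this count says nothing particular about PRC2. The study itself used a Wald test, which called genes in both directions here, and it reported no change in Polycomb group genes. DESeq2 called 2.64% of all genes and none of the subunit genes. At an unadjusted p under 0.05, 2 of the 10 differed, Ezh2 and Aebp2, both lower in ΔCdk8 cells, against 20.4% of all genes. Log2 fold changes of the subunit genes ran from -0.44 to 0.79 with a median size of 0.39, and the median size over all genes was 0.37.

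Ezh2, the main catalytic subunit in dividing cells, was at 268, 259 and 220 TPM in uninduced wild-type numbers 1, 2 and 3 and at 247, 152 and 213 TPM in clones 8, 11 and 15. Clone 11 was lowest by far, and clone 8 lay within the wild-type range, so the groups overlapped. The log2 fold change was -0.44±0.17 (s.e.; adjusted p=0.226). Aebp2, the zinc finger subunit that helps PRC2 bind nucleosomes, was at 39.3, 38.6 and 40.5 TPM in wild type and at 33.5, 28.1 and 35.4 TPM in the clones. Every clone was below every wild-type library, which held for 6.79% of all genes in this direction and for no other subunit gene. Its log2 fold change was -0.44±0.12 (s.e.; adjusted p=0.151), and DESeq2 gave -0.46 (adjusted p=0.00347), below a 2-fold change.

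Ezh2 and Aebp2 both lie on chromosome 6, at chr6:47530139-47595341 (reverse strand) and chr6:140622663-140678472 (forward strand) of GRCm38. In clone 11 the 534 expressed genes of chromosome 6 had a median log2 ratio to wild type of -0.58, whereas those of the 7 other autosomes that carry a subunit gene had medians between -0.043 and 0.0016. The same was measured after induction, with a median of -0.57 over 535 genes of chromosome 6. Clones 8 and 15 had chromosome 6 medians of 0.13 and 0.052, beside medians of 0.13 and 0.20 over all genes (clone 11, -0.030). On the TPM scale Ezh2 was at -0.71 in clone 11 beside -0.51 for its 39 neighbours within 5 Mb, and Aebp2 was at -0.49 beside -0.74 for its 21 neighbours. In clone 15 the Ezh2 neighbours stood at -0.32 with Ezh2 at -0.22. Without clone 11 the edgeR log2 fold changes were -0.34 for Ezh2 and -0.43 for Aebp2, and neither was called. DNA copy number was not measured here, and its part in these values was not tested.

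**Figure D2:**
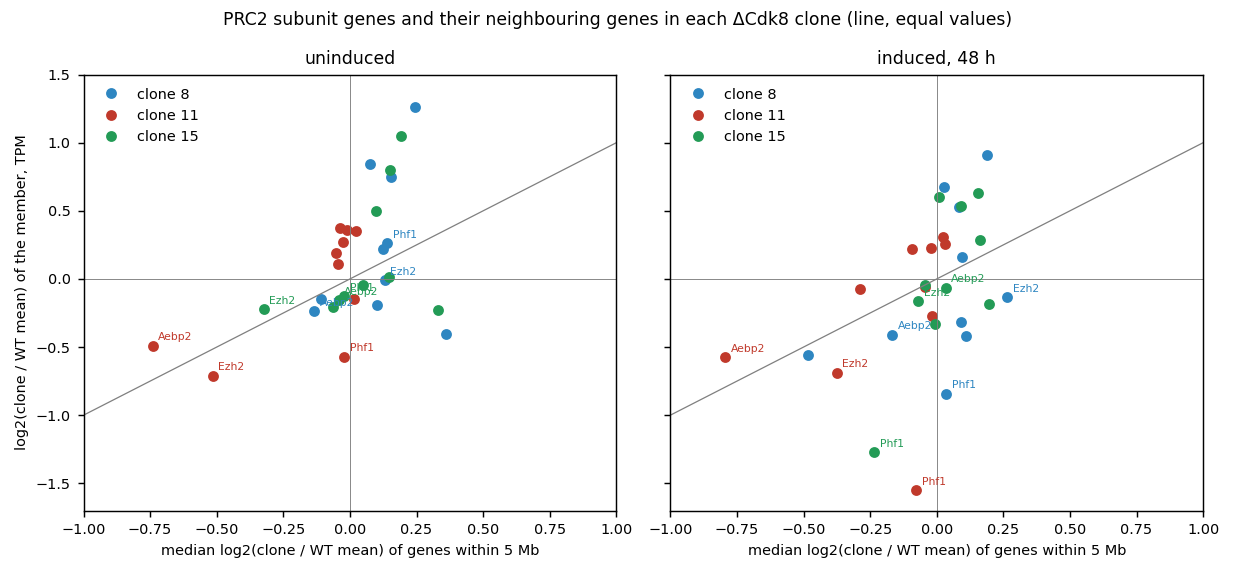
Log2 ratio of each clone to the wild-type mean (TPM) for each PRC2 subunit gene (vertical axis) and the median of expressed genes that start within 5 Mb of it (horizontal axis), uninduced (left) and induced (right). In clone 11 (red) Ezh2 and Aebp2 sit to the left with their neighbours (medians -0.51 and -0.74, uninduced), whereas Phf1 lies far below its neighbours in all 3 induced clones.

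The other catalytic subunit gene, Ezh1, which is known for its place in non-dividing cells, was higher on average in ΔCdk8 cells. It was at 16.5, 12.1 and 11.4 TPM in uninduced wild type and at 22.3, 12.05 and 23.2 TPM in clones 8, 11 and 15. Clones 8 and 15 were above and clone 11 within the wild-type range, and the log2 fold change of 0.41±0.25 (s.e.; adjusted p=0.363) did not pass. It ranged from 0.28 without clone 8 to 0.60 without clone 11. The ratio of Ezh2 to Ezh1 TPM nevertheless separated the genotypes. It was 16.2, 21.5 and 19.3 in wild-type numbers 1, 2 and 3 and 11.1, 12.6 and 9.21 in clones 8, 11 and 15, a log2 difference of -0.80. The exact two-sided permutation test gave p=0.1, which is the smallest value that 3 samples against 3 can give. After induction the ratio was 17.6, 16.7 and 13.3 in wild-type and 9.92, 11.8 and 9.24 in ΔCdk8 libraries. Ezh2 was below all uninduced wild-type libraries in uninduced clones 11 and 15, and Ezh1 was above them in clones 8 and 15. In clone 11 the low ratio thus came with low Ezh2, at -0.71 beside -0.51 for its neighbours (log2, clone over wild type). The part of that regional level in the ratio was not tested.

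Suz12, the scaffold of the complex, was at 184, 127 and 107 TPM in uninduced wild type and at 250, 181 and 197 TPM in the clones. Only wild-type number 1 reached into the range of the clones. The log2 fold change was 0.45±0.22 (s.e.; adjusted p=0.290), and it ranged from 0.28 without wild-type number 3 to 0.69 without number 1. Induced levels were 187, 131 and 124 TPM against 235, 172 and 213 TPM, with a log2 fold change of 0.37±0.19 (s.e.; adjusted p=0.250). Suz12 was higher and Ezh2 lower on average in ΔCdk8 cells, and the ratio of Suz12 to Ezh2 TPM was 0.686 at most in uninduced wild-type libraries and 0.922 at least in uninduced clones. It was 0.530 to 0.708 and 0.962 to 1.12 in the induced groups, and this ratio was picked after its values were seen, so that it was not tested. Uninduced clone 11 had the highest ratio, 1.19, and there the neighbours of Ezh2 were at -0.51 (log2, clone over wild type). The part of that regional level was not tested either.

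Eed and Rbbp4 did not separate the genotypes in uninduced conditions. Eed was at 227, 211 and 178 TPM in wild type and at 185, 248 and 178 TPM in the clones, with a log2 fold change of -0.15±0.21 (s.e.; adjusted p=0.695) that was -0.41 (adjusted p=0.0921) without clone 11 and -0.0023 without clone 15. Rbbp4 was at 358, 362 and 371 TPM in wild type and at 319, 391 and 353 TPM in the clones, with a log2 fold change of -0.18±0.16 (s.e.; adjusted p=0.518) that was -0.36 (adjusted p=0.0565) without clone 11 and -0.088 without clone 8. In both genes clone 11 was the highest mutant library. The summed TPM of all 10 subunit genes came to 1381±209.9 in wild type and to 1411±52.7 in the clones (n=3 each, exact two-sided permutation p=0.8).

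Among the Polycomb-like genes, Phf19 showed the largest genotype difference in size. It was at 16.5, 5.87 and 7.45 TPM in uninduced wild type and at 23.9, 12.7 and 20.6 TPM in clones 8, 11 and 15. Clones 8 and 15 were above all wild-type libraries and clone 11 was below wild-type number 1, and the log2 fold change was 0.79±0.40 (s.e.; adjusted p=0.296). It was 1.35 without wild-type number 1 and 0.52 without number 2, and was called in neither case. The trophoblast marker sum was 46.4 TPM in uninduced wild-type number 1, where Phf19 was highest in its group, and 35.7, 13.0 and 58.6 TPM in uninduced clones 8, 11 and 15, and its part in the Phf19 values was not tested. Mtf2, the most abundant Polycomb-like gene in ESCs, was at 236, 122 and 123 TPM in wild type and at 187, 206 and 162 TPM in the clones, a log2 fold change of 0.12±0.28 (s.e.; adjusted p=0.818). Here too wild-type number 1 was the highest of its group. Leaving it out gave 0.49, and leaving out clone 11 gave -0.024. Mtf2 shares 2639 bp with Tmed5 on the opposite strand, which was at no more than 13.9 TPM. Phf1 was at 3.28, 5.69 and 7.91 TPM in wild type and at 6.76, 3.79 and 5.16 TPM in the clones, and its log2 fold change of -0.37±0.36 (s.e.; adjusted p=0.552) did not pass. Without wild-type number 1 it was -0.64 and without number 3 it was -0.10.

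For PRC2.2, Jarid2, the subunit that links PRC2 to nucleosomes in ESCs, was at 268, 167 and 149 TPM in uninduced wild type and at 147, 222 and 166 TPM in clones 8, 11 and 15. The groups overlapped, with a log2 fold change of -0.26±0.29 (s.e.; adjusted p=0.614) that became 0.041 without wild-type number 1 and -0.56 without clone 11. Jarid2 and Aebp2 together made up 54.6%, 60.6% and 57.7% of the summed TPM of the 5 accessory genes in wild type and 45.3%, 52.9% and 51.7% in the clones. The difference was -7.65 percentage points, and again the exact two-sided permutation test gave its smallest possible value, p=0.1. This share was 62.1% at most in the induced wild-type and 55.0% at most in the induced ΔCdk8 libraries, and there the ranges overlapped because wild-type number 1 was at 50.8%.

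**Figure D3:**
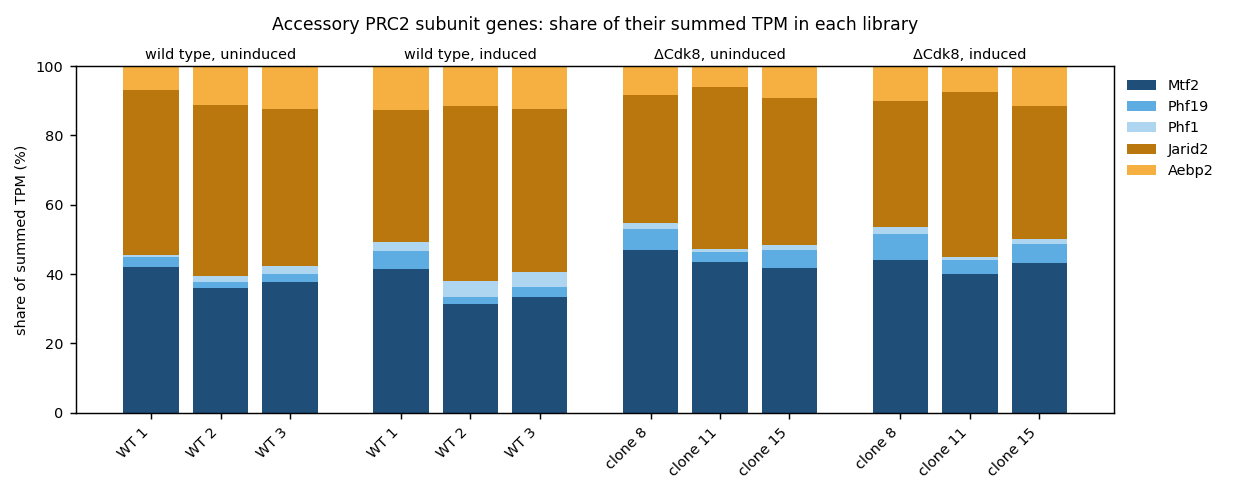
Share (%) of the summed TPM of the 5 accessory PRC2 subunit genes in each library (blue, Polycomb-like genes of PRC2.1; orange, Jarid2 and Aebp2 of PRC2.2). The orange part is 54.6% to 60.6% in uninduced wild-type and 45.3% to 52.9% in uninduced ΔCdk8 libraries, and the palest blue part, Phf1, is 0.582% to 2.41% in uninduced and 2.40% to 4.51% in induced wild-type libraries.

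Xist expression in wild-type ESCs was followed by higher Phf1, whose product binds trimethylated lysine 36 of histone H3 and takes PRC2 to chromatin. Phf1 went from 3.28 to 12.5 TPM in wild-type number 1, from 5.69 to 17.1 TPM in number 2 and from 7.91 to 15.3 TPM in number 3. All induced libraries were above all uninduced ones, and the ratios within the numbers were 3.79, 3.01 and 1.93. The edgeR log2 fold change was 1.33±0.31 (s.e.; adjusted p=0.0617), short of the threshold. With the wild-type number as a block it was 1.39±0.19 (s.e.; adjusted p=0.00695) and passed. Phf1 also passed with DESeq2 (1.31, adjusted p=0.000962) and with edgeR without wild-type number 1 (1.13, adjusted p=0.00738), but not without number 2 (1.27, adjusted p=0.488) or number 3 (1.56, adjusted p=0.331). Phf1 had few reads, 134 to 761 per library, of which 13.6% to 26.1% lay in introns. With exon reads alone the log2 fold change was 1.45 (adjusted p=0.0661).

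In ΔCdk8 ESCs Phf1 went from 6.76 to 8.34 TPM in clone 8, from 3.79 to 5.11 TPM in clone 11 and from 5.16 to 6.19 TPM in clone 15. The ratios of 1.23, 1.35 and 1.201 were all above 1 and all below the lowest wild-type ratio. The log2 fold change was 0.37±0.29 (s.e.; adjusted p=1.00), and with the clone as a block its adjusted p was 0.0872. The difference between the genotypes in the response of Phf1 was -0.94±0.43 on the log2 scale (s.e.; adjusted p=1.00) without and -0.99±0.23 (s.e.; adjusted p=0.0362) with the block, neither of which was called at 0.01. The 175 neighbours of Phf1 within 5 Mb, on chromosome 17, had median log2 ratios of induced to uninduced between -0.022 and 0.16 in wild-type and between -0.12 and 0.034 in ΔCdk8 libraries. After induction, Phf1 was 0.438 times as high in ΔCdk8 as in wild-type ESCs on the TPM scale, with a log2 fold change of -1.33±0.26 (s.e.; adjusted p=0.0569) in edgeR and of -1.35 (adjusted p=2.2e-05, called) in DESeq2. This comparison shares its induced libraries with those above.

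**Figure D4:**
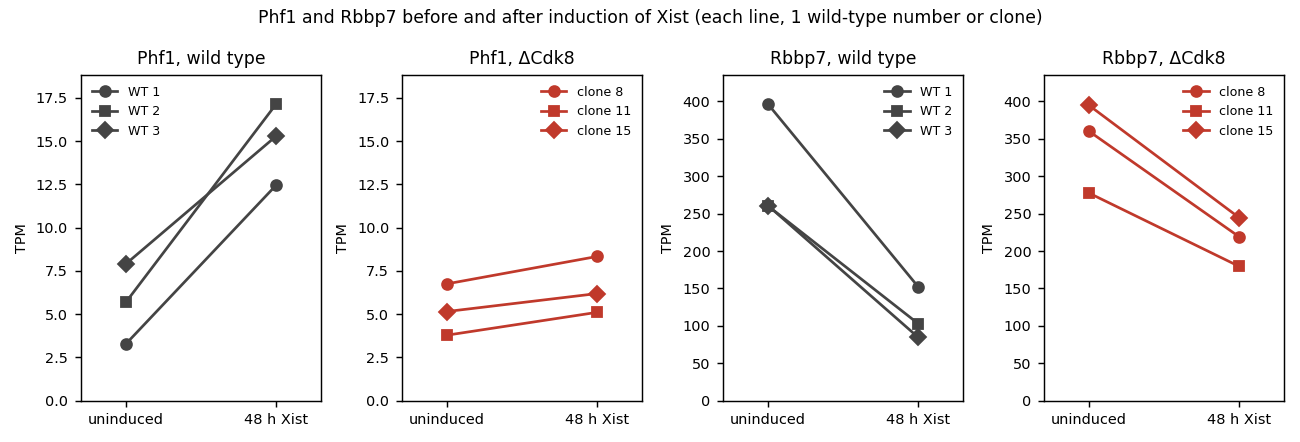
TPM (linear axis from 0) of Phf1 and Rbbp7 in uninduced and induced libraries, with a line for each wild-type number or clone. Induced over uninduced ratios of Phf1 are 1.93 to 3.79 in wild type and 1.201 to 1.35 in ΔCdk8 lines, and Rbbp7 goes to 0.325 to 0.396 of its level in wild type and to 0.608 to 0.647 in ΔCdk8 lines.

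The start regions of the 3 Polycomb-like genes are shown because these paralogues encode the alternative subunits of PRC2.1. They are RefSeq sequences of GRCm38.p6 that hold 250 bases before and 50 bases after the start of the gene, written 5′ to 3′ on the strand of the gene. They cover chr17:26932877-26933176 (forward strand) for Phf1, chr2:34913927-34914226 (reverse strand) for Phf19 and chr5:108065424-108065723 (forward strand) for the first of 2 starts of Mtf2. Capitals mark the GC box GGGCGG on either strand.
Phf1: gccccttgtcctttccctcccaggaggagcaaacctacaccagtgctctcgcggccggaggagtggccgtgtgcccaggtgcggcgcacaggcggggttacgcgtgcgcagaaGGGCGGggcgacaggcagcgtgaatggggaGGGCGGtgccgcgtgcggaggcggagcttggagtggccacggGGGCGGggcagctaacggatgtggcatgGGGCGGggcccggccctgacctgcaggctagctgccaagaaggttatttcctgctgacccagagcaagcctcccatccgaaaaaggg
Phf19: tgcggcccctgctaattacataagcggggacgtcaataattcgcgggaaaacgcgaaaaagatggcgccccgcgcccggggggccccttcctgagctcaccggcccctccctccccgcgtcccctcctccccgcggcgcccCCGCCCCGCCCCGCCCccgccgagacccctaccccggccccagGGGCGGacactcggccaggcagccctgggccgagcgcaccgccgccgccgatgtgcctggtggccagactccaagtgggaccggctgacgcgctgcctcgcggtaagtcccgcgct
Mtf2: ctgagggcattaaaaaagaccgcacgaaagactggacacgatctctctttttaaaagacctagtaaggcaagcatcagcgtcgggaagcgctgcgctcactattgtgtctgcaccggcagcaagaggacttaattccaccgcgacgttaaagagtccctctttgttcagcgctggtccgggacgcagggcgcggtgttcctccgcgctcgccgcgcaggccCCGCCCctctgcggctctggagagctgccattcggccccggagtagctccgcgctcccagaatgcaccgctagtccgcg
The windows of Phf1 and Phf19 each hold 4 GC boxes, 3 of which overlap each other in Phf19, and that of Mtf2 holds 1. At least 1 such box is found in 35.7% of all 32851 windows of this length. The letters describe these windows and show neither a bound factor nor a cause of the values.

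Neither Phf19 nor Mtf2 was called after induction, and their changes were not compared with that of Phf1 by a test. Phf19, which like Phf1 carries a Tudor domain, went from 16.5, 5.87 and 7.45 TPM to 27.5, 7.82 and 10.5 TPM, ratios of 1.66, 1.33 and 1.41, with a log2 fold change of 0.64±0.55 (s.e.; adjusted p=0.565). With the block it was 0.59±0.11 (s.e.; adjusted p=0.0152), below a 2-fold change. Mtf2 went from 236, 122 and 123 TPM to 215, 119 and 121 TPM, lower in each number, with a log2 fold change of -0.048±0.32 (s.e.; adjusted p=0.952). In the clones Phf19 reached 28.7, 17.9 and 23.7 TPM and was again higher in all 3, with a log2 fold change of 0.33±0.26 (s.e.; adjusted p=1.00) and, with the block, of 0.34±0.090 (s.e.; adjusted p=0.0168). Phf1 made up 1.28% to 5.70% of the Polycomb-like RNA in uninduced and 4.89% to 11.9% in induced wild-type libraries, and 2.42% to 4.03% in induced ΔCdk8 libraries.

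Of all 10 subunit genes, edgeR called 0 after induction in wild type, against 1.16% of 14006 genes tested. With the block it called 1, Phf1, against 3.95% of all genes, and DESeq2 called 1, Phf1, against 4.73%. At an unadjusted p under 0.05, 4 of the 10 differed, Rbbp4, Aebp2, Eed and Phf1, all higher, against 21.2% of all genes. Taking the numbers as pairs, 6 of the 10 were higher in all 3 pairs, against 28.1% of all genes. The 4 named were also the ones whose induced libraries were all above the uninduced ones, which held for 12.1% of all genes. With the block, Phf1, Eed and Phf19 had an adjusted p under 0.05, against 23.0% of all genes.

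Eed, the subunit that reads trimethylated lysine 27 and stimulates the enzyme, was at 227, 211 and 178 TPM before and at 284, 264 and 245 TPM after induction in wild-type numbers 1, 2 and 3. The groups did not overlap, and the ratios of 1.25, 1.25 and 1.37 were alike. Its log2 fold change was 0.43±0.11 (s.e.; adjusted p=0.0814), below the fold change of 2 in every fit. In the clones Eed went from 185, 248 and 178 TPM to 179, 251 and 210 TPM, ratios of 0.966, 1.012 and 1.18. The difference between the genotypes was -0.32±0.29 (log2, s.e.; adjusted p=1.00) without and -0.31±0.10 (s.e.; adjusted p=0.101) with the block. Rbbp4 went from 358, 362 and 371 TPM to 448, 390 and 415 TPM in wild type, a log2 fold change of 0.23±0.084 (s.e.; adjusted p=0.185), and to 336, 401 and 405 TPM in the clones, a log2 fold change of 0.12±0.19 (s.e.; adjusted p=1.00).

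Aebp2 was higher after induction in all 6 pairs. In wild type it reached 65.5, 43.7 and 45.5 TPM, ratios of 1.67, 1.13 and 1.12, of which wild-type number 1 gave the largest, and without it the log2 fold change was 0.20. In the clones it reached 38.8, 34.6 and 49.3 TPM, ratios of 1.16, 1.23 and 1.39. The log2 fold changes were 0.41±0.14 (s.e.; adjusted p=0.170) in wild-type and 0.37±0.14 (s.e.; adjusted p=1.00) in ΔCdk8 ESCs, and their difference was -0.013±0.19 (log2, s.e.; adjusted p=1.00). With the clone as a block its adjusted p in ΔCdk8 ESCs was 0.00263, at less than a 2-fold change.

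Ezh2, Ezh1, Suz12 and Jarid2 were not called after induction in either genotype. Ezh2 was at 264, 246 and 234 TPM in induced wild type and at 226, 154 and 222 TPM in the induced clones, with log2 fold changes on induction of 0.025±0.11 (s.e.) and 0.0093±0.20 (s.e.). Ezh1 was at 14.999, 14.8 and 17.6 TPM and at 22.8, 13.1 and 24.0 TPM, with log2 fold changes of 0.27±0.19 (s.e.) and 0.093±0.28 (s.e.). The wild-type ratios of Ezh1 were 0.909, 1.22 and 1.55 in numbers 1, 2 and 3, and its log2 fold change in wild type was 0.49 (adjusted p=0.0361) without number 1 and 0.027 (adjusted p=0.992) without number 3. Suz12 had log2 fold changes of 0.10±0.23 (s.e.) and 0.019±0.18 (s.e.). Jarid2 was at 198, 192 and 170 TPM and at 140, 223 and 164 TPM, with log2 fold changes of -0.037±0.22 (s.e.) and -0.00067±0.30 (s.e.). Jarid2 went to 0.737 of its uninduced level in wild-type number 1, whereas numbers 2 and 3 both went to 1.15 times theirs.

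In ΔCdk8 ESCs edgeR called none of the 10 subunit genes after induction, against 0% of 14832 genes, and neither did the fit with the clone as a block, against 1.40% of all genes, nor DESeq2, against 0.243%. At an unadjusted p under 0.05 there was 1, Aebp2, against 2.64% of all genes. Within clones, 5 of the 10 (Phf19, Rbbp4, Aebp2, Ezh1 and Phf1) were higher in all 3 pairs, against 18.2% of all genes. With the block, Aebp2 and Phf19 had an adjusted p under 0.05, against 11.8% of all genes. The interaction of genotype and induction called none of the 10, against 0% of 15137 genes, and DESeq2 called none either, against 0.218%. At an unadjusted p under 0.05 there were 0, against 3.88% of all genes. With the block Phf1 alone of the 10 had an adjusted p under 0.05, against 6.01% of all genes.

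Between the induced groups edgeR called none of the 10, against 0% of 14143 genes, and DESeq2 called Phf1, against 5.81% of all genes. At an unadjusted p under 0.05 there were 4, Ezh2, Aebp2, Eed and Phf1, all lower in ΔCdk8 cells, against 25.9% of all genes. Ezh2 and Phf1 were the subunit genes of which every induced clone was below every induced wild-type library, against 10.1% of all genes in this direction. Log2 fold changes were -0.46±0.17 (s.e.; adjusted p=0.143) for Ezh2, -0.47±0.18 (s.e.; adjusted p=0.155) for Aebp2 and -0.49±0.19 (s.e.; adjusted p=0.159) for Eed. That of Eed was -0.69 (adjusted p=0.0251) without clone 11, and that of Aebp2 was -0.31 without wild-type number 1.

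**Figure D5:**
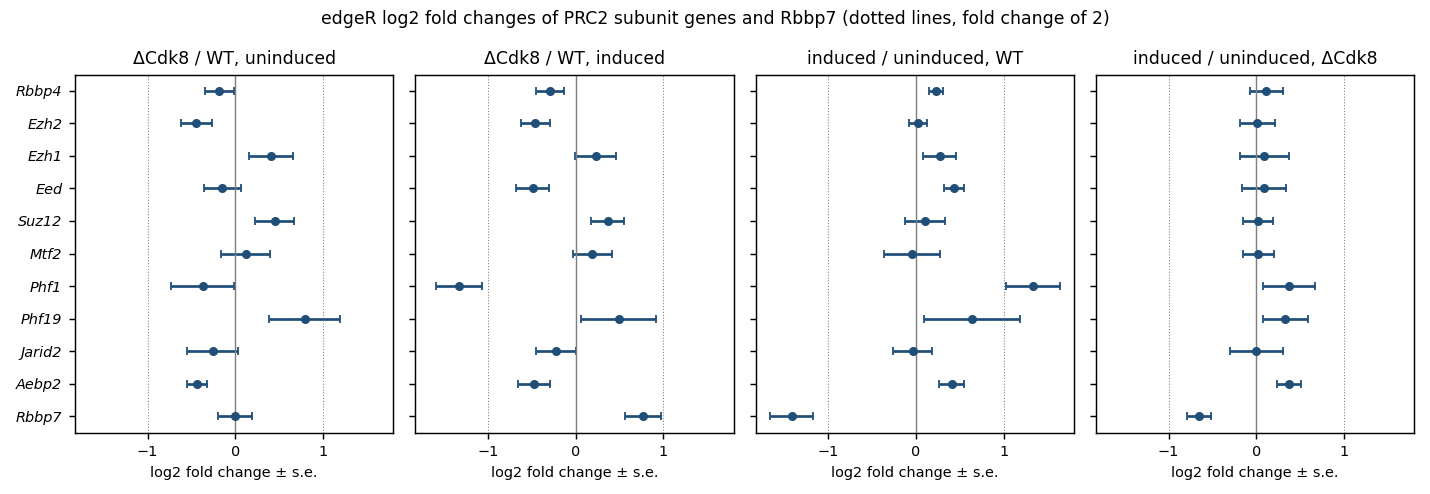
EdgeR log2 fold changes (points) and s.e. (bars) of the PRC2 subunit genes and Rbbp7 in 4 comparisons of 3 libraries with 3. Dotted lines mark a fold change of 2, which Phf1 exceeds on induction in wild type (1.33) and between the induced groups (-1.33), and Rbbp7 on induction in wild type (-1.42).

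Rbbp7, on the X chromosome at chrX:162760402-162779092 of GRCm38, encodes the alternative to RBBP4 and is given as another PRC2-linked gene. It went from 396, 260 and 261 TPM to 152, 103 and 84.7 TPM in wild type, without overlap of the groups. In clones 8, 11 and 15 it went from 360, 277 and 394 TPM to 219, 179 and 244 TPM, also without overlap. The log2 fold changes were -1.42±0.24 (s.e.; adjusted p=0.0274) and -0.65±0.14 (s.e.; adjusted p=0.864). The wild-type value passed with the block (-1.42±0.075, s.e., adjusted p=0.00059), with DESeq2, in 1 edgeR fit of all libraries (adjusted p=0.00217) and without wild-type number 1 (adjusted p=0.000831), but not without number 2 (adjusted p=0.261) or number 3 (adjusted p=0.250). In the clones the block gave -0.65±0.070 (s.e.; adjusted p=3.1e-06), at less than a 2-fold change, and the difference between the genotypes was 0.79±0.093 (log2, s.e.; adjusted p=0.0021), with all 3 clones keeping more of their level than any wild-type number. The neighbours of Rbbp7 within 5 Mb had median log2 ratios of -1.15, -1.02 and -1.31 in wild-type numbers 1, 2 and 3 and of -0.65, -0.46 and -0.54 in clones 8, 11 and 15. The share of Rbbp7 in the summed TPM of the 2 genes went from 45.2%±6.37 to 21.1%±4.21 in wild type and from 49.1%±6.59 to 36.0%±4.51 in ΔCdk8 ESCs (s.d., n=3 each).

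Of the 9 other PRC2-linked genes, which also include the cofactor genes Epop, Lcor, Lcorl, Elob and Eloc, the inhibitor gene Ezhip (listed as AU022751) and the demethylase genes Kdm6a and Kdm6b, the edgeR fits of the groups compared, without the block, called none in any comparison, against 1.16% of all genes after induction in wild type and 0% in the others. After induction in wild type the block called 1, Rbbp7, against 3.95% of all genes, and DESeq2 called Rbbp7 and AU022751, against 4.73%. At an unadjusted p under 0.05 there were 3 in that comparison, Rbbp7, Eloc and AU022751, all lower, against 21.2% of all genes. Between the induced groups there were also 3, with Eloc and Rbbp7 higher and Kdm6a lower in ΔCdk8 cells, against 25.9% of all genes. AU022751 is X-linked like Rbbp7 and went from 2.30, 2.202 and 2.99 TPM to 0.638, 0.670 and 0.839 TPM, a log2 fold change of -1.76±0.32 (s.e.; adjusted p=0.0326), on as few as 13 reads.

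The genes whose patterns across the 12 libraries were most like that of Ezh2 were Chchd3, Rpa3 and Copg1, with root mean square differences of 0.095, 0.11 and 0.12 (log2(TPM+1), each gene centred on its own mean) among 7986 genes with a mean of at least 10 TPM. All 3 lie on chromosome 6, like Ezh2. For Eed they were Slc39a14, Psmc1 and Gtf2e1 (0.096 to 0.11), for Suz12 Pacsin2, Tdrp and Map2k1 (0.12 each), and for Jarid2 BC048403, Orc5 and Uba2 (0.14 to 0.16), none of which shares a chromosome with the subunit gene. These likenesses are a description over 12 libraries that share clones and numbers.

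The reads themselves bore little ambiguity. At least 99.989% of the exon reads of each subunit gene were unique in every library. Intron reads made up 0.639% (Phf19) to 26.1% (Phf1) of the reads of a subunit gene. For Mtf2 the intron share was 9.00% to 11.3% in uninduced wild-type and 9.48% to 16.6% in uninduced ΔCdk8 libraries, and for Ezh1 it was 4.36% to 5.03% and 7.22% to 11.3%. Over all genes this share was 4.77% to 7.59%.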

How the data were processed

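Polyadenylated RNA was sequenced as stranded libraries. Untrimmed reads were aligned by the authors with the CLC Genomics Workbench to GRCm38 (Ensembl), and a table was deposited for each library without pooling. Its counts, as deposited, are raw and cover genes, exons and introns, for all reads and for uniquely placed ones. The deposited TPM and RPKM values were computed by the authors from exon reads and exon length, and RPKM was used as an alternative only. The deposited fraction columns give the unique part of exon reads and the intron part of gene reads, and were recomputed here from the counts. Whether counting used the strand is not given in the sources used here. Its part in the values of overlapping genes was not tested.

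Subunit genes, other gene lists and tests were chosen with earlier results of these data known. Named were all 10 subunit genes, other PRC2-linked genes that were called together with Rbbp7, and, of 36 PRC2 target genes, those called and the 2 with the largest change in each direction between the uninduced groups. Total gene reads were tested with edgeR 4.0.16 in R 4.3.3 (TMM normalization, genes kept by filterByExpr at 10 reads and 15 in total, quasi-likelihood test, adjustment after Benjamini and Hochberg over all genes tested), within the groups compared and over 12 libraries for the interaction. A call needed more than a 2-fold change at an adjusted p below 0.01, as in the study. The s.e. was the log2 fold change divided by the square root of F. Ratios and shares of TPM were tested with an exact two-sided permutation test, computed in Python 3.11.15. All p-values are two-sided. Counts, not TPM, set the log2 fold changes, so that both scales differ slightly. Intervals and s.e. cover the spread between 3 libraries.

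Samples of 1 wild-type number or clone deviated together, with correlations across 12131 genes of 0.61 to 0.72 (wild type) and 0.88 to 0.92 (clones), so the numbers in the sample titles were used as a block. Alternatives were DESeq2 1.42.0, RLE normalization, no filter, unique or exon reads, an adjusted p under 0.05 without a minimum fold, all 12 libraries in 1 fit, the block, and leaving out each sample. Promoter windows came from RefSeq (GRCm38.p6) and matched all 10 subunit genes. The fits were run on simulated independent counts with a dispersion of 0.05 and 4-fold changes in 200 genes, of which 81.0% to 98.5% were recovered. The data had common dispersions of 0.0857 to 0.142 and mostly smaller changes. The simulation therefore does not show how many such changes would be found. Genes whose reads were not listed, raw reads, protein and chromatin were not analysed here. Some results for the developmental target genes are not reported here.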

Additional observations from a re-analysis of the deposited data

Results flagged for a closer look

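The response of Phf1 to Xist expression differed between the genotypes when the wild-type number and the clone were fitted as a block, by -0.99±0.23 on the log2 scale (ΔCdk8 minus wild type, s.e.; edgeR adjusted p=0.0362). The log2 fold changes in that fit of each genotype were 1.39 in wild-type and 0.37 in ΔCdk8 ESCs, and the induced over uninduced ratio was above 1 in 6 of 6 pairs. Without the block the difference was -0.94 (adjusted p=1.00), and over all alternatives without the block it ranged from -1.18 to -0.78.

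The response of Rbbp7 differed in the same test by 0.79±0.093 on the log2 scale (edgeR adjusted p=0.0021), with log2 fold changes of -1.42 in wild-type and -0.65 in ΔCdk8 ESCs and a ratio below 1 in 6 of 6 pairs. Without the block the difference was 0.78 (adjusted p=1.00).

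The same test gave further differences between the genotypes. That of Tbx3 was -1.64±0.17 on the log2 scale (edgeR adjusted p=0.00132), with log2 fold changes of 2.37 in wild-type and 0.71 in ΔCdk8 ESCs. Esrrb had a difference of -1.45±0.34 (edgeR adjusted p=0.0385), with log2 fold changes of 1.86 and 0.39. Msx1 differed by 2.19±0.43 (edgeR adjusted p=0.0193), with log2 fold changes of -2.32 and -0.16. Without the block none of these had an adjusted p below 0.05 for the difference in edgeR. What sets the differences was not tested.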

How the results depend on the processing

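Over 60 log2 fold changes of named genes, 674 alternatives were computed, of which 624 kept the direction and the side of the threshold, 12 passed newly, 2 no longer passed and 36 changed sign. No subunit gene was called in the uninduced comparison, in ΔCdk8 ESCs or for the interaction under any alternative run. The count of 0 after induction in wild type became 1 (Phf1) with DESeq2, with the replicate block and without wild-type number 1, and ranged from 0 to 1 when each number was left out. Between the induced groups it became 1 (Phf1) with DESeq2. The block changed no other call of a subunit gene. Of all genes, DESeq2 called 386 in the uninduced comparison, 662 after induction in wild type, 36 in ΔCdk8 ESCs, 33 for the interaction and 822 between the induced groups, where edgeR called 0, 162, 0, 0 and 0, and the block called 553, 208 and 151 in the 3 comparisons that allow it.

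Tbx3 after induction in wild type was not called without number 2 (2.199, adjusted p=0.166) or number 3 (2.22, adjusted p=0.121). The log2 ratio of summed TPM turned from 0.041 to -0.0015 with RPKM and ranged from -0.046 to 0.16 when 1 sample was left out. Signs also turned for log2 fold changes near 0. Rbbp7 between uninduced groups was 0.013 with exon reads. Ezh2 after induction in wild type was -0.0015 without a filter and -0.0060 in 1 fit of all libraries, and Jarid2 was 0.014 with the block. In ΔCdk8 ESCs Ezh2 was -0.0012 with DESeq2 and with RLE and -0.0021 in 1 fit, and Jarid2 was 0.011 and Mtf2 -0.0074 with exon reads. For the interaction Ezh2 was -0.0098 with DESeq2 and with RLE and -0.0041 without a filter. With 1 sample left out, the uninduced comparison gave -0.56 to 0.041 for Jarid2, -0.052 to 0.49 for Mtf2 and -0.11 to 0.22 for Rbbp7. Induction in wild type gave -0.060 to 0.036 for Ezh2, -0.18 to 0.22 for Jarid2 and -0.11 to 0.011 for Mtf2. Induction in ΔCdk8 ESCs gave -0.045 to 0.048 for Ezh2, -0.049 to 0.042 for Suz12, -0.022 to 0.0027 for Jarid2 and -0.086 to 0.093 for Mtf2. The interaction gave -0.41 to 0.066 for Ezh1, -0.049 to 0.072 for Ezh2, -0.15 to 0.0038 for Suz12, -0.23 to 0.18 for Jarid2, -0.0046 to 0.17 for Mtf2 and -0.12 to 0.16 for Aebp2. The cause of these changes was not tested.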

Other observations

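Among 36 genes listed as PRC2 targets of ESCs, 18 had enough reads to be tested between the uninduced groups, and edgeR called none of them, against 0% of all genes. Not all were silent here, as Otx2 was at 27.2, 92.9 and 77.0 TPM in uninduced wild-type numbers 1, 2 and 3. Whether PRC2 represses the listed genes in these cells was not tested. There were 8 at an unadjusted p under 0.05, of which 4 were higher and 4 lower in ΔCdk8 ESCs, against 20.4% of all genes. A gene that passed only through the group where it is high had to differ, and the other 18 genes were not tested. Tbx3, a transcription factor gene of the pluripotency network, was at 3.93, 2.63 and 2.07 TPM in uninduced wild-type numbers 1, 2 and 3 and at 21.1, 17.9 and 13.9 TPM in clones 8, 11 and 15, a log2 fold change of 2.46±0.32 (s.e.; adjusted p=0.101) that passed with DESeq2 and in 1 fit of all libraries. Gata4, an endoderm factor gene, was at 0.164 to 1.13 TPM and at 1.82 to 5.42 TPM, with a log2 fold change of 2.22±0.67 (s.e.; adjusted p=0.171). Fgf5, a marker of primed pluripotency, was at 0.708, 5.90 and 9.04 TPM in wild type and at 0.338, 1.095 and 0.446 TPM in the clones, a log2 fold change of -3.14±0.91 (s.e.; adjusted p=0.163). Msx1, a homeobox gene, was at 0.624, 5.49 and 6.86 TPM and at 0.552, 0.510 and 0.833 TPM, a log2 fold change of -2.94±0.78 (s.e.; adjusted p=0.154). Fgf5 (adjusted p=0.0051) and Msx1 (adjusted p=0.00374) passed with DESeq2, as did Otx2 (-1.89, adjusted p=0.00626). For Fgf5 and Msx1, wild-type number 1 was close to the clones and numbers 2 and 3 were above all of them.

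After induction in wild type edgeR called 1 of 18 tested target genes, Tbx3, which rose to 15.6, 14.5 and 12.1 TPM with a log2 fold change of 2.33±0.26 (s.e.; adjusted p=0.0062), against 1.16% of all genes. It was not called without number 2 (adjusted p=0.166) or number 3 (adjusted p=0.121). With the wild-type number as a block Tbx3 and Neurod1 were called as higher and Msx1 and Otx2 as lower, against 3.95% of all genes called. In the clones Tbx3 went to 33.1, 29.1 and 23.0 TPM, and there 0 of 20 tested target genes were called by edgeR, against 0% of all genes, with 1 (Tbx3) at an unadjusted p under 0.05, against 2.64%. With the clone as a block 2 of the 20 were called, Fgf5 (-1.96, adjusted p=0.0099) and Otx2 (-1.09, adjusted p=0.000155), both lower, against 1.40% of all genes.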
